A study of Mus musculus with 8 samples.

Results

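The 41 genes described here make and handle cholesterol and fatty acids. They were chosen by symbol from a list of such genes, and all 41 were found among the 13204 genes of the table and passed the filter on low values (a level of 1 RPKM or more in 4 or more of the 8 libraries, RPKM being reads per kilobase of exon, scaled to the depth of the library). They fall into 14 genes of sterol synthesis, 5 of SREBP control, 8 of fatty acid synthesis, 6 of cholesterol efflux and storage and 8 of fatty acid oxidation. Their RNA levels were compared between mouse CD8 T cells sorted as positive for FcgRIIB, the inhibitory receptor for IgG (4 libraries), and CD8 T cells sorted as negative for it (4 libraries). Both groups were OT-I cells, whose receptor recognises an ovalbumin peptide, gated as CD44hi, Thy1.1+ and CD8+. Recipients of both groups received 1000000 OT-I cells 24 hours before a skin graft that carried ovalbumin, and spleens were taken on day 14. Each of 4 pools held 3 spleens and gave 1 positive and 1 negative library of 1000 cells, so that animals within a pool cannot be told apart.

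Cells make cholesterol from acetyl-CoA through the mevalonate pathway and cut that synthesis when their membranes hold enough of it. SREBP transcription factors, held in the endoplasmic reticulum by INSIG proteins and escorted to the Golgi by SCAP, drive genes of synthesis and uptake, while the oxysterol receptors LXR drive genes of efflux. Activated T cells are known to raise lipid synthesis as they divide, and macrophages are known for high levels of efflux, storage and lipoprotein genes.

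Depth lay between 16470000 and 22020000 reads in the libraries of pools 1 and 2 and between 3060000 and 7360000 reads in those of pools 3 and 4. Fcgr2b, the gene of the sorted receptor, averaged 48.5 ± 17.8 RPKM across positive libraries, against 3.65 ± 1.43 RPKM across negative ones (SD, n = 4 each, as for all means below). Markers of other cell types differed between the groups as well. The summed level of 16 macrophage and monocyte markers, led by Lyz2 and C1qb, was 1972 to 2944 RPKM per positive library, against 213 to 1328 RPKM per negative one, and limma called 12 of them higher. That of 14 dendritic cell markers, led by Naaa and Irf8, was 743 to 1581 RPKM per positive library, against 36.6 to 102 RPKM per negative one, with 13 higher. That of 16 core T cell genes, led by Cd8b1 and Cd3g, was 2256 to 4871 RPKM per positive library, against 5957 to 9508 RPKM per negative one, with none called and 8 lower once the pool was a block. Basophil markers, led by Mcpt8 and Prss34, summed to 45.8 to 1256 RPKM per positive library, against 3.53 to 36.6 RPKM per negative one, with 2 of 7 higher, and B cell markers, led by Cd79a and Cd79b, to 70.9 to 199 RPKM per positive library, against 79.9 to 435 RPKM per negative one, with none of 6 tested called. No macrophage marker was at 0 in any library, against 1 dendritic cell and 2 basophil markers that were. Bulk libraries do not tell fewer cells of a type from less RNA per cell.

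The members that passed a test all belong to cholesterol efflux and storage. Apoe and Nr1h3 were higher in positive cells in limma without the pool as a block, and no member was lower. With the pool as a block 3 members were higher, Soat1 being the third, and none was lower. These 2 of 41 members made up 4.88%, against 3.03% of all 11946 genes tested that were higher and 0.268% that were lower. With the block the members' share was 7.32%, against 7.22% of all genes higher and 3.85% lower. As a whole the members were thus called about as often as other genes. The median log2 fold change of RPKM + 1 was 0.09 over the members and -0.11 over all genes tested.

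**Figure D1:**
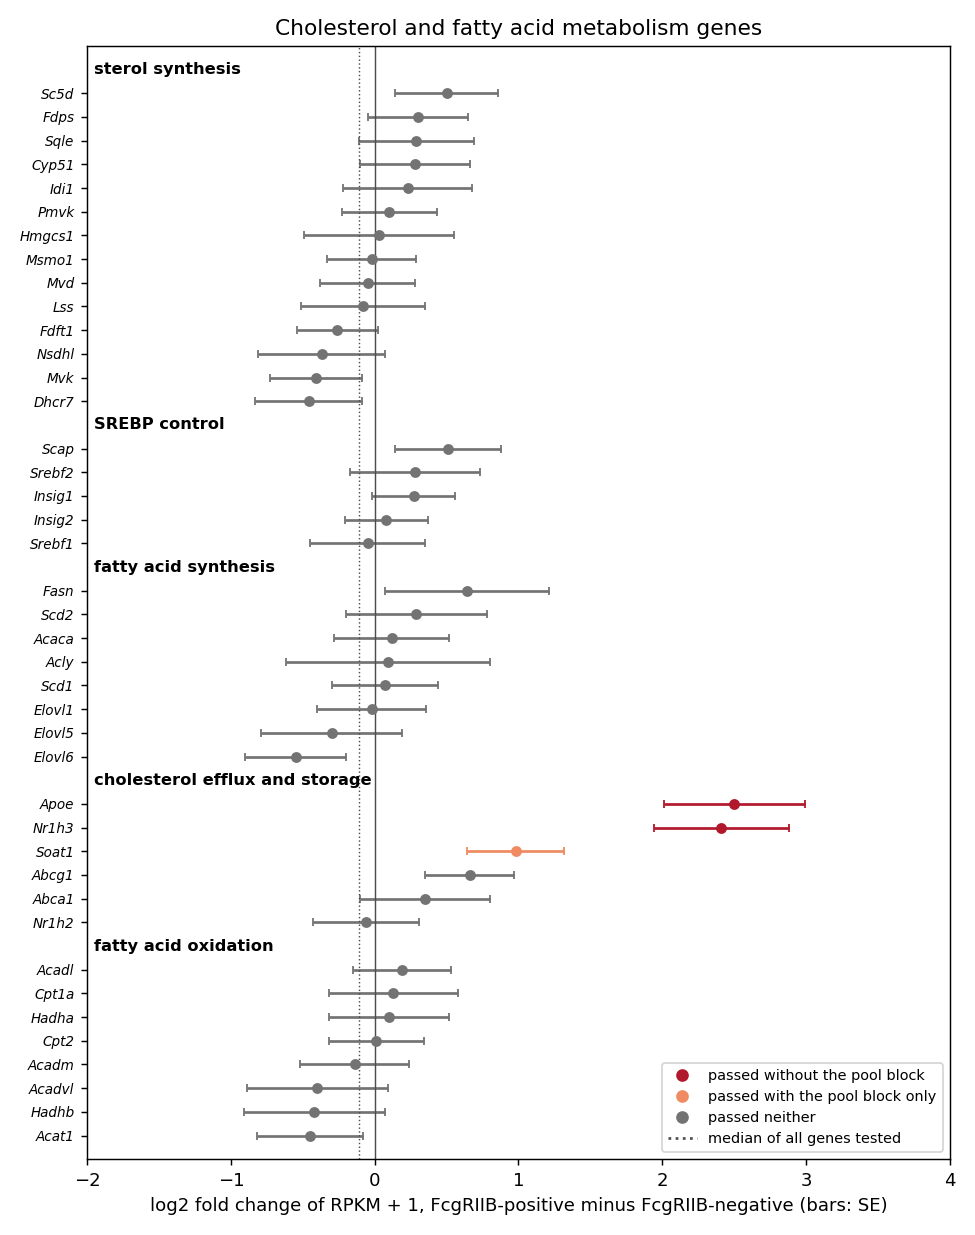
Log2 fold change of RPKM + 1 for each of the 41 members, FcgRIIB-positive minus FcgRIIB-negative libraries, with its error from limma (n = 4 each), grouped by role. Apoe (2.50) and Nr1h3 (2.41) stand apart. Soat1 is at 0.98, less than its SE of 0.34 above Abcg1, and the other 38 members lie between -0.55 and 0.66 (Abcg1).

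No gene of sterol synthesis was called in either fit. Of 14 members, 7 had a fold change above 0 and 7 below 0, with a median of 0.01 and a range from -0.46 to 0.50 on the log2 scale. Fdps, which makes farnesyl diphosphate and was the most abundant of them, averaged 52.0 ± 9.60 RPKM across positive libraries, against 43.1 ± 14.1 RPKM across negative ones. Pmvk, the phosphomevalonate kinase, averaged 17.2 ± 4.39 RPKM across positive libraries, against 16.2 ± 5.51 RPKM across negative ones. Both differed between the groups by less than 1 SD. Sc5d, a desaturase near the end of the pathway, had the highest fold change at 0.50 (SE 0.36, 95% interval -0.29 to 1.29, limma adjusted p = 0.73). Dhcr7, the reductase of the last step to cholesterol, had the lowest at -0.46 (SE 0.37, 95% interval -1.26 to 0.35, limma adjusted p = 0.789). The level of Dhcr7 was below that of the negative library in the positive library of 4 of 4 pools, as was that of Nsdhl, a sterol dehydrogenase with a fold change of -0.37 (SE 0.44). Further fold changes below 0 were -0.41 (SE 0.32) for Mvk, the mevalonate kinase, -0.05 (SE 0.33) for Mvd, the mevalonate diphosphate decarboxylase, -0.26 (SE 0.28) for Fdft1, the squalene synthase, -0.08 (SE 0.43) for Lss, the lanosterol synthase, and -0.02 (SE 0.31) for Msmo1, a sterol methyl oxidase. Those above 0 were 0.30 (SE 0.35) for Fdps, 0.29 (SE 0.40) for Sqle, the squalene epoxidase, 0.28 (SE 0.38) for Cyp51, the lanosterol demethylase, 0.23 (SE 0.45) for Idi1, the isomerase of isopentenyl diphosphate, 0.10 (SE 0.33) for Pmvk and 0.03 (SE 0.52) for Hmgcs1.

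Many of these genes differed more by pool than by group. Hmgcs1, which makes the HMG-CoA of the pathway, was at 10.4, 10.9, 1.78 and 2.68 RPKM in positive libraries of pools 1 to 4, against 9.82, 5.59, 3.82 and 2.72 RPKM in negative libraries of pools 1 to 4. Each library of pools 1 and 2 lay above each library of pools 3 and 4, and the groups overlapped. The same order of pools held for Sqle, Idi1, Cyp51, Msmo1, Dhcr7 and Sc5d, whereas Pmvk had the reverse order. Over all 41 members, 18 had every library of pools 1 and 2 above every library of pools 3 and 4 (43.9%) and 1 the reverse, against 15.0% and 16.6% of all genes tested. This split of the pools follows depth and was described after the values were seen. The 18 members had a median exon length of 4106 bases and the other 23 of 3170 bases, against 3421 bases over all genes tested. All genes with the order of the 18 had a median of 4224 bases, and those with the reverse order one of 2813 bases. All genes were also ranked by exon length into 5 equal bins, shortest first. The share with the order of the 18 was 1.21%, 13.8%, 20.0%, 22.0% and 18.1% in turn. These bins hold 5, 13, 6, 9 and 8 of the 41 members, of which 0, 8, 1, 7 and 2 had it. The members thus showed no steady rise with exon length. With all genes ranked by mean RPKM into 5 equal bins, lowest first, the share was 0.251%, 4.81%, 21.2%, 31.9% and 17.0% in turn. These bins hold 4, 3, 15, 10 and 9 of the 41 members, of which 0, 1, 8, 5 and 4 had the order. The summed RPKM of all genes was 379432 to 466071 in pools 1 and 2 and 560042 to 663497 in pools 3 and 4. The part of depth and exon length in this pattern was not tested.

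**Figure D2:**
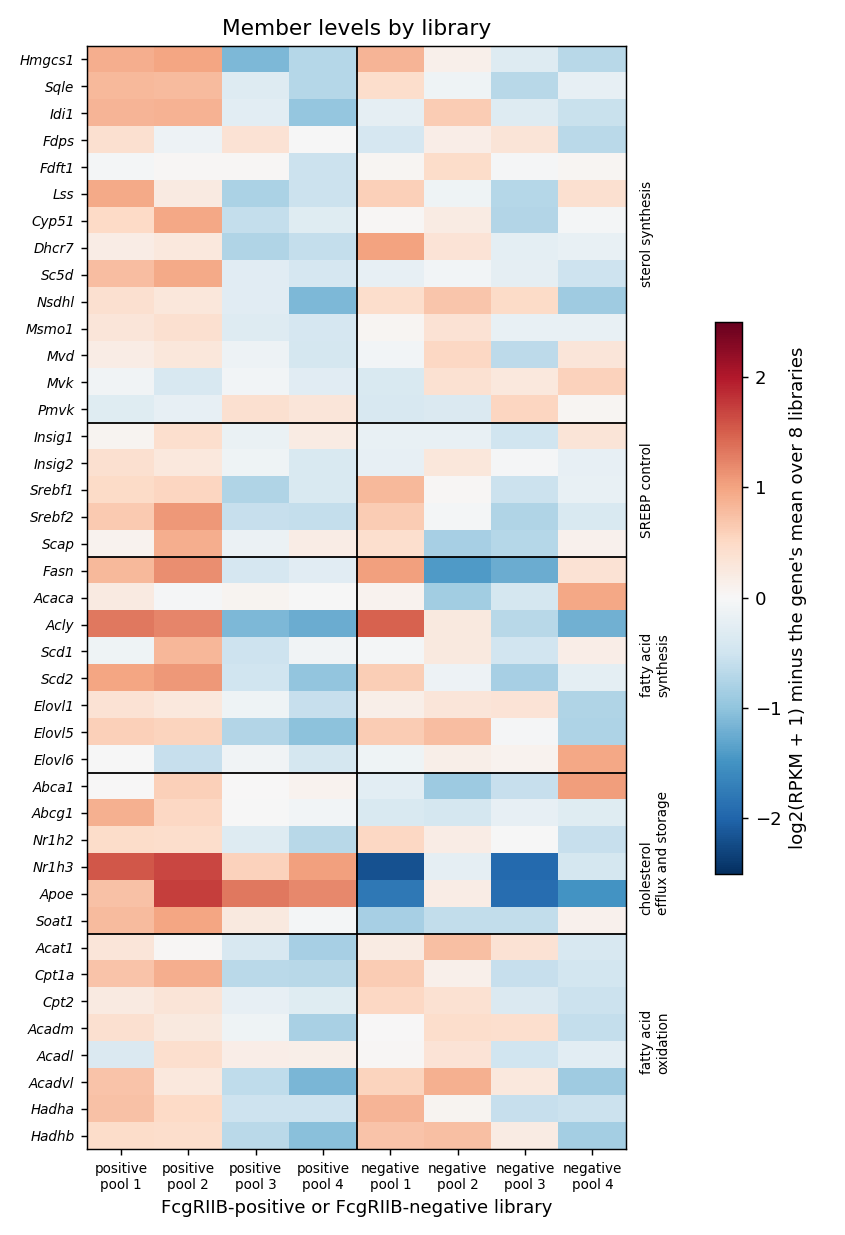
Level of each member in each library as log2(RPKM + 1) minus the gene's mean over the 8 libraries (colour), with the 4 positive libraries left of the 4 negative ones and rows grouped by role. Hmgcs1 and Acly are above their mean in pools 1 and 2 and below it in pools 3 and 4 on both sides, whereas Apoe and Nr1h3 part the sides.

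The promoters of sterol synthesis genes shared short elements. RefSeq promoter windows (build GRCm38.p6, 250 bases before to 50 after a start) matched 34 of the 41 members by symbol, 11 of them of sterol synthesis. Windows of Abcg1, Acat1, Fdft1, Fdps, Scd1, Scd2 and Sqle were not used here. The CCAAT box, the letters CCAAT on either strand, known as the element of NF-Y, was in 11 of 11 sterol synthesis windows, in 21 of 34 members' windows and in 41.1% of those of all 27025 genes searched. The Sp1 box, GGGCGG on either strand, was in 10 of 11 sterol synthesis windows and in 24 of 34 members' windows, against 38.2% of all genes. All genes searched include genes not tested here, whereas every member passed the filter on low values, so the shares are not of like sets. The sterol regulatory element in a loose form, TCACNCCAC on either strand, was in the window of Hmgcs1 and of no other member, and in 1.44% of all genes. The sequences of 3 sterol synthesis genes whose levels followed the pools are shown to let these elements be seen. Each gives the 250 bases before the start, 5′ to 3′ on the strand of the gene, with the CCAAT box, the Sp1 box and the loose sterol regulatory element, on either strand, in capitals.
Hmgcs1, chr13:119690101-119690350, plus strand: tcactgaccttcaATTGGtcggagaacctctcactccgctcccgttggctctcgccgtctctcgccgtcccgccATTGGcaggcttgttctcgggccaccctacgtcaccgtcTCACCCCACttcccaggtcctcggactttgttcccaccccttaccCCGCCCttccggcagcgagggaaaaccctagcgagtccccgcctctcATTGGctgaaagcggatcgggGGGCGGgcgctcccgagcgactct
Idi1, chr13:8885356-8885605, plus strand: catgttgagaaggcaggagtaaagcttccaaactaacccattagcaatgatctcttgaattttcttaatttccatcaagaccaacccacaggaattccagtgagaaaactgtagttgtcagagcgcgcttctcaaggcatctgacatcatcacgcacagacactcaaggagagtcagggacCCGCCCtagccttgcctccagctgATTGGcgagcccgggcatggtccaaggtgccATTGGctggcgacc
Cyp51, chr5:4104698-4104947, minus strand: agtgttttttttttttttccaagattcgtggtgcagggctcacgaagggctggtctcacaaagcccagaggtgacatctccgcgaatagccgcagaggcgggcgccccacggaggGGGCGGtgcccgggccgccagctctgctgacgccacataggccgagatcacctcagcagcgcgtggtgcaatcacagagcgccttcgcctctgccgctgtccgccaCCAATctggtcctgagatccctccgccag
Hmgcs1 holds all 3 elements in this stretch, and Idi1 and Cyp51 hold the CCAAT and Sp1 boxes. Bases just after the Hmgcs1 start were not found in a GENCODE transcript of that gene, whereas those after the Idi1 and Cyp51 starts were found in theirs. A match of letters is not a measured site of binding.

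Genes of SREBP control had no call in either fit. The median log2 fold change of the 5 members was 0.27, from -0.05 to 0.51. Srebf2, whose product drives mainly sterol synthesis, averaged 19.3 ± 11.6 RPKM across positive libraries, against 14.8 ± 6.88 RPKM across negative ones. Srebf1, whose product drives mainly fatty acid synthesis, averaged 15.2 ± 6.72 RPKM across positive libraries, against 15.7 ± 7.15 RPKM across negative ones. Both had the 4 libraries of pools 1 and 2 above the 4 of pools 3 and 4. Scap, which encodes the escort of SREBP, had a fold change of 0.51 (SE 0.37), and in pool 2 it was at 22.3 RPKM in the positive and 6.07 RPKM in the negative library. Insig1 and Insig2, which encode the proteins that retain SREBP, had fold changes of 0.27 (SE 0.29) and 0.08 (SE 0.29).

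Genes of fatty acid synthesis had no call in either fit, with a median of 0.08 over 8 members and a range from -0.55 to 0.64. Acly, which makes cytosolic acetyl-CoA from citrate, was at 98.9, 93.1, 17.5 and 15.9 RPKM in positive libraries of pools 1 to 4, against 111, 46.3, 23.8 and 16.5 RPKM in negative libraries of pools 1 to 4. The groups overlapped and the pools did not, with pools 1 and 2 above pools 3 and 4 in every library. Its fold change was 0.09 (SE 0.71, 95% interval -1.47 to 1.64), so that a 2-fold change in either direction lies inside the interval. With the block, which removes the difference between pools, the SE was 0.25 and the interval -0.44 to 0.61, which does not hold a 2-fold change. Elovl5, an elongase of polyunsaturated fatty acids and the most abundant member of this group, averaged 62.2 ± 33.7 RPKM across positive libraries, against 74.1 ± 32.4 RPKM across negative ones, and its positive library was the lower one in 4 of 4 pools. Elovl1, an elongase of very long chains, averaged 52.1 ± 14.4 RPKM across positive libraries, against 53.5 ± 16.2 RPKM across negative ones. Neither difference exceeded 1 SD. Fasn, the fatty acid synthase, had the highest fold change of the group at 0.64 (SE 0.57). Its positive and negative libraries were at 20.5 and 2.59 RPKM in pool 2 but at 15.9 and 18.7 RPKM in pool 1, so that the pools did not share a direction. Elovl6, the elongase of palmitate, had the lowest fold change of all members at -0.55 (SE 0.35, limma adjusted p = 0.656). Acaca, the acetyl-CoA carboxylase, had a fold change of 0.12 (SE 0.40), and the related desaturase genes Scd1 and Scd2, between which reads may be shared, had 0.07 (SE 0.37) and 0.29 (SE 0.49).

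Cholesterol efflux and storage had a median of 0.82 over 6 members, from -0.06 to 2.50. Apoe, the apolipoprotein by which macrophages release cholesterol, was at 174, 345, 261 and 240.4 RPKM in positive libraries of pools 1 to 4, against 29.3, 119, 27.1 and 36.1 RPKM in negative libraries of pools 1 to 4. Every positive library lay above every negative one, and the negative library of pool 2 was the highest of the negative ones. Apoe rose by 2.50 on the log2 scale (SE 0.49, limma adjusted p = 0.0147, and 5.74e-07 with the block), and an exact two-sided permutation test over 35 splits gave p = 0.0286, its lower limit. Without the negative library of pool 1 the limma adjusted p was 0.0521, and without that of pool 3 it was 0.0789. The fold change was 2.03 within pools 1 and 2 and 2.96 within pools 3 and 4, called in both.

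Nr1h3, which encodes the oxysterol receptor LXR alpha of macrophages and liver, was at 21.5, 23.5, 10.4 and 14.6 RPKM in positive libraries of pools 1 to 4, against 0.687, 5.54, 0.992 and 4.63 RPKM in negative libraries of pools 1 to 4. The groups did not overlap, and the negative libraries of pools 1 and 3 were under 1 RPKM. The fewest reads behind a value were 16, in the negative library of pool 3. Nr1h3 rose by 2.41 on the log2 scale (SE 0.47, limma adjusted p = 0.0142, and 1.13e-05 with the block). The call was lost without the negative library of pool 3 (limma adjusted p = 0.0673) and after scaling to a common sum (limma adjusted p = 0.0532). Within pools 1 and 2 its fold change was 2.82, and within pools 3 and 4 it was 1.99 (limma adjusted p = 0.08). Nr1h2, which encodes the widely expressed LXR beta, averaged 23.7 ± 9.14 RPKM across positive libraries, against 24.2 ± 7.65 RPKM across negative ones, with a fold change of -0.06 (SE 0.37).

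Soat1, which esterifies cholesterol for storage, was at 26.0, 30.3, 17.7 and 14.1 RPKM in positive libraries of pools 1 to 4, against 7.82, 9.25, 9.22 and 15.9 RPKM in negative libraries of pools 1 to 4. Its positive library was the higher one in pools 1, 2 and 3 and the lower one in pool 4, so the groups overlapped. The log2 fold change of 0.98 (SE 0.34) did not pass without the block (limma adjusted p = 0.207) and passed with it (adjusted p = 0.0259). Within pools 1 and 2 it was 1.61, and within pools 3 and 4 it was 0.36. The 250 bases before its start are shown because, of these 3 genes, its window was the one that held a CCAAT box, in capitals.
Soat1, chr1:156474329-156474578, minus strand: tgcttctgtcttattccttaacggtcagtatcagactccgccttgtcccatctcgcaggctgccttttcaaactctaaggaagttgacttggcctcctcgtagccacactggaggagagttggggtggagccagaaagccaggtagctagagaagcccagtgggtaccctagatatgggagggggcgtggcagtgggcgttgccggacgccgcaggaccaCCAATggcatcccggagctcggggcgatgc
The window of Soat1 also held a Sp1 box, which does not lie within the 250 bases shown. The windows of Apoe and Nr1h3 held no CCAAT or Sp1 box. The DR4 element of LXR, a pair of AGGTCA half-sites in the same direction with 4 bases between them, searched on both strands, was in no member's window and in 0.0148% of all genes.

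Abcg1, a pump that passes cholesterol to lipoproteins and a known LXR target, was at 33.3, 25.4, 17.2 and 16.5 RPKM in positive libraries of pools 1 to 4, against 13.2, 12.6, 15.0 and 14.1 RPKM in negative libraries of pools 1 to 4. The groups did not overlap, with a wide gap in pools 1 and 2 and a narrow one in pools 3 and 4. Its log2 fold change of 0.66 (SE 0.31) did not pass without the block (limma adjusted p = 0.44) or with it (adjusted p = 0.105). Abca1, the pump for lipid-poor apolipoproteins, was low at 2.03 ± 0.665 RPKM across positive libraries, against 1.72 ± 1.86 RPKM across negative ones. Apoe, Nr1h3 and Abcg1 were the 3 members of 41 whose positive libraries all lay above the negative ones (7.32%), against 4.61% of all genes tested. No member had the reverse, against 4.15% of all genes tested.

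**Figure D3:**
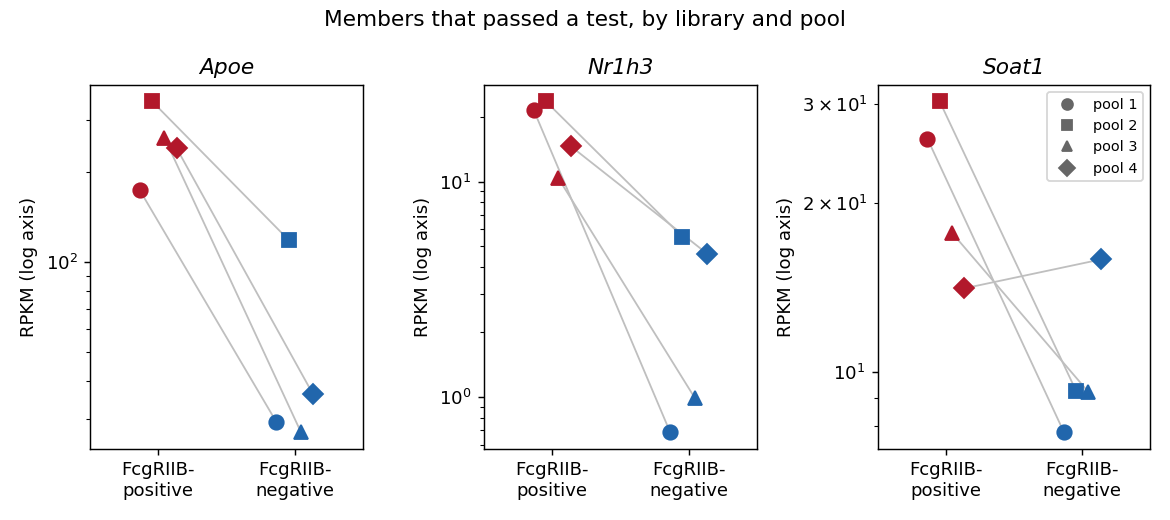
RPKM of Apoe, Nr1h3 and Soat1 in each library on a log axis, FcgRIIB-positive left of FcgRIIB-negative, with the pools marked. Apoe and Nr1h3 are higher in the positive library of every pool, and Soat1 in pools 1, 2 and 3.

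Among negative libraries, Apoe and the 2 leading macrophage markers were highest in the same one. In the negative library of pool 2, where Apoe was at 119 RPKM, C1qb was at 116 RPKM and Lyz2 at 856 RPKM. In the other negative libraries C1qb was at 23.5, 32.8 and 59.5 RPKM and Lyz2 at 96.1, 84.3 and 129.9 RPKM. The summed B cell markers were highest in that library of pool 2 too, at 435 RPKM. Positive libraries did not share 1 order. In pools 1 to 4 C1qb was at 360, 407, 337 and 355 RPKM there and Lyz2 at 886, 772, 812 and 724 RPKM, while Apoe was lowest in pool 1. The members were also set against the summed RPKM of the 3 C1q chains, which macrophages make, a ratio chosen after the values were seen. Apoe came to between 25.5% and 40.1% of that sum in positive and between 30.8% and 50.2% in negative libraries. Nr1h3 came to between 1.52% and 3.14% of that sum in positive and between 1.18% and 3.95% in negative libraries. Set against C1q, both genes overlapped between the groups. Soat1 came to between 1.94% and 3.81% of that sum in positive and between 3.80% and 13.5% in negative libraries, ranges that meet. Against the summed macrophage and monocyte markers Soat1 came to 0.714% to 1.03% in positive, 0.697% to 4.74% in negative libraries, and in pool 2 to 1.03% in the positive and 0.697% in the negative library. These ratios are no test of the source of the RNA. The C1q chains themselves rose by 2.62 to 2.89 on the log2 scale. A gene that rose by a similar amount can overlap in the ratio whatever cell made it. The part of macrophage RNA in these calls was not tested.

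Genes of fatty acid oxidation had no call in either fit, with a median of -0.07 over 8 members and a range from -0.45 to 0.19. Hadhb, which encodes a subunit of the mitochondrial trifunctional protein, averaged 82.5 ± 40.9 RPKM across positive libraries, against 109 ± 46.0 RPKM across negative ones, and its positive library was the lower one in 4 of 4 pools. Acadl, the long-chain acyl-CoA dehydrogenase, averaged 45.1 ± 9.78 RPKM across positive libraries, against 39.5 ± 10.3 RPKM across negative ones. Both differed between the groups by less than 1 SD. Hadha, which encodes the other subunit, had a fold change of 0.10 (SE 0.42), and Acadm and Acadvl, the dehydrogenases for medium and very long chains, had -0.14 (SE 0.38) and -0.40 (SE 0.49). Cpt1a, the entry step of long chains into mitochondria, had a fold change of 0.13 (SE 0.45), and Cpt2, its partner at the inner membrane, one of 0.01 (SE 0.33). Acat1, a mitochondrial thiolase that is not the enzyme of Soat1, had the lowest fold change at -0.45 (SE 0.37). In this group 5 of 8 members had all libraries of pools 1 and 2 above all of pools 3 and 4.

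The 38 members that passed neither fit were not shown to be equal between the groups. Without the block their standard errors ran from 0.28 to 0.71 on the log2 scale, and the 95% interval of 25 of them reached a 2-fold change in at least 1 direction, whereas that of 13 did not. With the block the standard errors ran from 0.23 to 0.37, and the interval of 8 reached a 2-fold change, whereas that of 30 did not. Exons of 12 members overlap another annotated gene, 10 of them on the opposite strand, as Fdft1 does the cathepsin gene Ctsb and Srebf1 the gene Rai1. The sources used here do not say whether counting used the strand, so reads of such pairs cannot be told apart.

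Among other genes of the same pathways, most calls again fell on lipid storage and efflux. Of 85 such genes, 75 were in the table and 70 were tested, and limma called 5 higher and none lower (12 higher and 2 lower with the block). Over all genes tested the shares were 3.03% higher and 0.268% lower, and 7.22% and 3.85% with the block, but these lists were chosen with earlier results of the same libraries known. Storage, efflux and lipid handling had 4 of 17 tested genes higher (9 with the block), none lower in either fit, and a median of 1.13. Cyp27a1, the mitochondrial sterol 27-hydroxylase, averaged 77.5 ± 34.8 RPKM across positive libraries, against 3.27 ± 3.06 RPKM across negative ones, and rose by 4.43 on the log2 scale (SE 0.54, limma adjusted p = 0.000869). Cd36, a scavenger receptor and fatty acid importer, averaged 70.5 ± 48.9 RPKM across positive libraries, against 4.58 ± 2.63 RPKM across negative ones, a fold change of 3.50 (limma adjusted p = 0.00305). Plin2, a coat protein of lipid droplets, averaged 74.6 ± 33.5 RPKM across positive libraries, against 11.5 ± 3.30 RPKM across negative ones, a fold change of 2.52 (limma adjusted p = 0.00472). These 3 genes stayed called whichever single library was left out. Pltp, the phospholipid transfer protein, rose by 1.86 (limma adjusted p = 0.0226) and kept its call in 3 of the 8 fits that each omit a library. Pparg, a lipid-sensing nuclear receptor, and Lipe, a lipase, were called with the block alone, with fold changes of 1.79 (SE 0.49) and 1.14 (SE 0.39). Set against the C1q chains, Cyp27a1 came to between 7.17% and 14.5% of that sum in positive and between 0.419% and 6.05% in negative libraries, ranges that do not overlap. The same ratio overlapped between the groups of libraries for Cd36 (3.29% to 15.1% in positive, 2.40% to 7.06% in negative), Plin2 (4.84% to 13.2% in positive, 5.73% to 20.2% in negative), Pltp (3.36% to 7.22% in positive, 4.94% to 14.9% in negative) and Scarb1 (1.83% to 5.89% in positive, 3.81% to 9.43% in negative). No ratio to the dendritic cell markers was taken. Their log2 fold changes ran from 1.80 to 4.90. That range holds those of Cyp27a1, Cd36, Plin2, Pltp and Scarb1 alike, and of Apoe and Nr1h3. The cell type behind these levels was not tested.

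Of 21 tested genes of sterol synthesis, uptake and trafficking, 1 was higher (2 with the block), none was lower in either fit and the median was 0.04. Scarb1, a receptor that exchanges cholesterol with HDL, averaged 27.2 ± 17.1 RPKM across positive libraries, against 6.06 ± 3.56 RPKM across negative ones, and rose by 1.94 on the log2 scale (limma adjusted p = 0.0435), and kept its call in 3 of the 8 fits that each omit a library. Lipa, the lysosomal acid lipase, had a log2 fold change of 1.68 (SE 0.60) and was called with the block (limma adjusted p = 0.000107) and not without it (limma adjusted p = 0.224).

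Fatty acid synthesis and activation had none of 13 tested genes called by limma (2 at an unadjusted p under 0.05), a median of -0.10, and 1 gene higher with the block, the desaturase gene Fads1 at 0.93 (SE 0.33). Oxidation had none of 19 tested genes called by limma (1 at an unadjusted p under 0.05), with a median of -0.28 and 13 genes below 0. With the block 2 were lower, Hadh, the hydroxyacyl-CoA dehydrogenase, at -0.99 (limma adjusted p = 0.0255) and Acaa2, a mitochondrial thiolase, at -0.91 (limma adjusted p = 0.0173). Scaling to the core T cell genes, which had a median of -0.97 in the same libraries, moved every gene up by the same amount. The median of all genes tested went from -0.11 to 0.84. These 2 genes then stood at -0.03 and 0.04 and were not called. That follows from the common shift and cannot tell why they were lower, which was not tested.

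**Figure D4:**
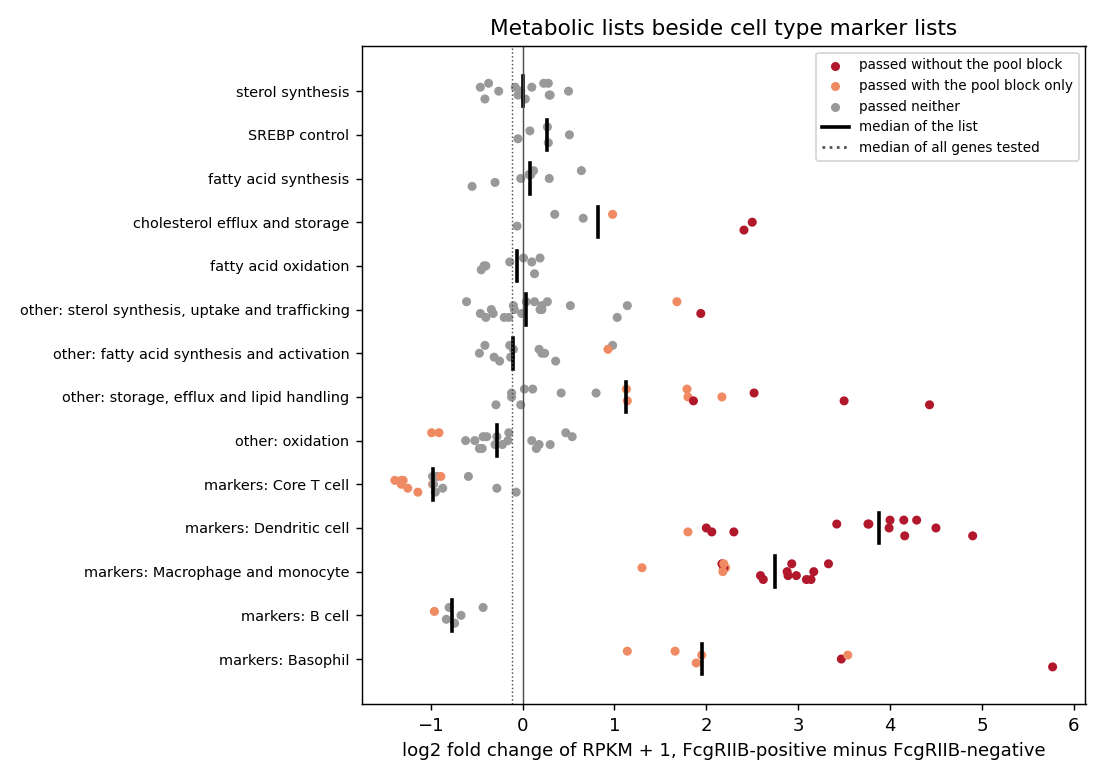
Log2 fold change of RPKM + 1, FcgRIIB-positive minus FcgRIIB-negative, for the tested genes of the 5 member groups, the 4 lists of other pathway genes and the lists of cell type markers, with each list's median. Medians of efflux and storage (0.82) and of storage, efflux and lipid handling (1.13) lie above those of the other metabolic lists (-0.28 to 0.27) and below those of macrophage (2.75) and dendritic cell markers (3.88).

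The direction of many members depends on what the libraries are scaled to. After scaling to the core T cell genes the median of all genes tested moved to 0.84 and that of the members to 1.04. Sterol synthesis then stood at 0.96, SREBP control at 1.22, fatty acid synthesis at 1.03, efflux and storage at 1.77 and fatty acid oxidation at 0.89. On that scale 6 of 41 members were higher without the block, against 1108 of all 11946 genes tested (9.28%). With the block 33 of 41 were higher, against 6400 of all genes (53.6%). The members' share was the larger one in both fits. This scaling moved every gene up by the same amount, so a call on it rests partly on the gene's error. Bins 3, 4 and 5 of mean RPKM hold 15, 10 and 9 of the 41 members. The part of level and error in the members' share was not tested. The 25 members above 0 in the main fit, Apoe, Nr1h3 and Soat1 among them, were above 0 on both scales. The other 16 changed sign.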

How the data were processed

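RNA from 8 libraries of 1000 sorted cells was amplified with SMART-seq v4 and tagged with NexteraXT, per the labels' protocols. The authors deposited RPKM per gene, not counts, and the submitters' processing notes name TopHat2 and mm9; the annotation and any use of strand are not given there. The low RPKM values checked, 381 to 1185 per library, were whole multiples of 1 read within 0.1 reads, which gave the depth of each library, 3060000 to 22020000 reads. Genes that reached 1 RPKM in 4 or more libraries (11946 of 13204) were tested on log2(RPKM + 1) with limma 3.58.1 (R 4.3.3), positive minus negative, with a trend in the prior variance and Benjamini-Hochberg adjustment over all genes at 0.05. Fold changes on this scale understate those of low genes. The fit without the block was tried on simulated data, whose noise was independent between libraries and so not shared within a pool. It recovered 6.8% of 2-fold, 71.2% of 4-fold, 93.6% of 8-fold and 98.4% of 16-fold changes. An exact two-sided permutation test over 35 splits was run for single genes.

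The groups share replicate numbers because both were sorted from the same pool of spleens, and deviations from the group means correlated within pools 1 to 4 at 0.70, 0.41, 0.56 and 0.68. The fit without the pool as a block is the main one, and the fit with it is given where it changes a call. Alternatives were 2 other pseudocounts, no filter, 4 other scalings, pools 1 and 2 or 3 and 4 alone, and each library left out.

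The members and lists were chosen with earlier results of these data known. Members called in either fit are given by library. Others are given by group means, fold changes or counts, with at least the 2 most abundant of each role. Of other pathway genes, up to 6 called per list are named, and of each marker list the 2 most abundant. Other genes that the rule names are not reported here. Hmgcs1, Acly and Abcg1 are given by library after their values were seen. Promoter sequences come from RefSeq on GRCm38.p6, not the build of the alignment.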

Additional observations from a re-analysis of the deposited data

Results flagged for a closer look

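In 3 of 82 groups of 4 libraries, 1 library lay farther from its nearest neighbour than Dixon's criterion allows on the log2 scale, and chance gives about 1 in 20 such groups. Fdft1 was at 6.01 RPKM in the positive library of pool 4, below the other positive libraries. Nsdhl was at 6.20 RPKM in the negative library of pool 4, below the other negative libraries. Abca1 was at 3.02 RPKM in the positive library of pool 2, above the other positive libraries. No cause was tested.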

How the results depend on the processing

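With the pool as a replicate block, used because both groups came from the same pools, 863 genes were higher and 460 lower, and of other pathway genes 12 were higher and 2 lower. Scaling to a common sum gave 220 genes higher and 8 lower, 1 member higher and 3 other pathway genes higher. Median ratio scaling gave 19 genes lower and quantile normalization 59. Scaling to core T cell genes gave 1108 genes higher and 0 lower, 6 members and 15 other pathway genes higher, and with the block 6400 higher, 16 lower, 33 members and 45 other pathway genes higher. On that scale, with or without the block, medians were 0.96 for sterol synthesis, 1.22 for SREBP control, 1.03 for fatty acid synthesis, 1.77 for efflux and storage and 0.89 for oxidation. With that scaling and the block, members below 0 in the main fit were called higher: Msmo1 (0.93), Mvd (0.90), Srebf1 (0.90), Elovl1 (0.93), Elovl5 (0.65), Nr1h2 (0.89), Acadm (0.81) and Hadhb (0.54). Pools 1 and 2 alone gave 875 genes higher, 142 lower and 14 other pathway genes higher, and pools 3 and 4 alone gave 11 genes lower, 1 member higher and an oxidation median of -0.28. Leaving out 1 library at a time gave 178 to 503 genes higher, 5 to 45 lower, 0 to 2 members and 3 to 6 other pathway genes higher, and an oxidation median of -0.26 to 0.11. No member was higher without the negative library of pool 3, and 1 without that of pool 1. The other pseudocounts and the missing filter changed no member's call. The cause of these shifts was not tested. Depth limits pools 3 and 4 most, where 1 library had 3060000 reads.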
